A study of Drosophila melanogaster with 23 samples.

Results

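The trypsins named with Greek letters were followed through midguts of *Drosophila* that expressed reprogramming factors, a senolytic peptide, or both. Their 10 genes (alphaTry, betaTry, gammaTry, deltaTry, epsilonTry, zetaTry, etaTry, thetaTry, iotaTry and lambdaTry) were taken by name, whatever their level, and make up 10 of the 17714 genes in the count files. The family was chosen with earlier results of these data known. All 10 passed the filter on low counts in both expression models. The data came from 23 bulk RNA-seq libraries of adult midgut. OKSM stands for the Yamanaka factors Oct4, Klf4, Sox2 and c-Myc, and Sen for a transgenic peptide meant to remove senescent cells.

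In the ISC-restricted model (the ISC model below), esgGal4 with tubGal80ts drove UAS-OKSM, UAS-Sen, both transgenes (OKSM-Sen), or UAS-TdTomato (WT), with 3 libraries for each construct. In the ubiquitous model, armGal4 with tubGal80ts drove the same constructs, with 3 libraries each for OKSM, OKSM-Sen and WT and 2 for Sen. The methods of the study list UAS-GFP beside both drivers, so that WT flies carried fluorescent proteins, a Gal4 driver and the Gal80 repressor too, although the design text deposited with the data names no Gal4 for WT. The list of fly lines also gives UAS-dCas9.VPR, a transgene for an inactive Cas9 fused to an activator, for the esg-Gal4 stock but not for the armGal4 stock, whereas the list of crosses does not name it. The escargot driver is active in intestinal stem cells and enteroblasts, and the armadillo driver throughout the fly. Expression was constant, the age and sex of the flies are not stated for these libraries, and nothing says whether those of a group came from separate cultures, so that p-values measure the spread between these libraries, which may be technical.

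Trypsins are serine proteases that cut proteins after lysine or arginine. Enterocytes of the fly midgut secrete them into the lumen as inactive precursors, where they digest dietary protein. Their genes respond to diet and differ in where along the midgut they are expressed. In whole-midgut RNA, fewer cells that express a gene and less RNA per cell cannot be told apart.

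All 10 genes lay in a cluster on chromosome arm 2R within 20.7 kb, from position 11336840 to 11357537 (BDGP6, the assembly also called dm6, Ensembl annotation). The order was lambdaTry (FBgn0043470), zetaTry (FBgn0011556), etaTry (FBgn0011554), thetaTry (FBgn0011555), alphaTry (FBgn0003863), epsilonTry (FBgn0010425), betaTry (FBgn0010357), gammaTry (FBgn0010359), deltaTry (FBgn0010358) and iotaTry (FBgn0015001). Every member is a protein-coding gene of a single exon, 810 to 1071 bp long. None overlaps another gene in the annotation except deltaTry, which shares 15 bp with CG13202 on the opposite strand. Another 3 trypsin genes stand among them, kappaTry after lambdaTry, and CG30031 and CG30025 between gammaTry and deltaTry.

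The genes alphaTry to deltaTry share sequence, so that reads can match more than 1 of them, and the deposited expected counts divide such reads by estimate. A count that is not whole is a trace of that division. It was seen for gammaTry and deltaTry in 23 of 23 libraries, for alphaTry in 22 and for betaTry in 15. For betaTry the trace followed the groups: its counts were whole in all 8 ubiquitous libraries with a construct, and not whole in the 3 ubiquitous WT libraries and the 12 ISC libraries. CG30031 had such counts in 22 libraries and CG30025 in 15, whereas epsilonTry, zetaTry, etaTry, thetaTry, iotaTry, lambdaTry and kappaTry had them in 0. Single values of alphaTry, betaTry, gammaTry and deltaTry are therefore uncertain, and their sum and 2 pair sums are given beside them. Each pair sum still depends on how reads are divided between the pairs. The estimate gave CG30031 between 536 and 625 expected counts in 4 libraries (ISC OKSM replicate 1, ISC Sen replicate 3, ISC WT replicate 1 and ubiquitous WT replicate 3) and at most 3.8 in the other libraries.

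Some trypsins were among the most abundant mRNAs of the gut. The expected counts of the 10 genes summed to between 0.962% and 3.99% of a library. By TPM, the length-corrected transcript level that allows genes of different length to be compared, alphaTry stood between rank 2 and rank 16 of all genes in the ISC model, and between rank 3 and rank 5 in the ubiquitous model. In ISC WT midguts the mean TPM ran from alphaTry at 28254 over betaTry at 7748, gammaTry at 4659, deltaTry at 3498, thetaTry at 2306, epsilonTry at 1947, lambdaTry at 553, iotaTry at 429 and zetaTry at 298 to etaTry at 237. In that order the ranges of the libraries overlapped between gammaTry and deltaTry, deltaTry and thetaTry, thetaTry and epsilonTry, and zetaTry and etaTry. Ubiquitous WT midguts had nearly the same order, led by alphaTry at 21220 and betaTry at 11904 TPM and closed by zetaTry at 209 TPM.

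**Figure D1:**
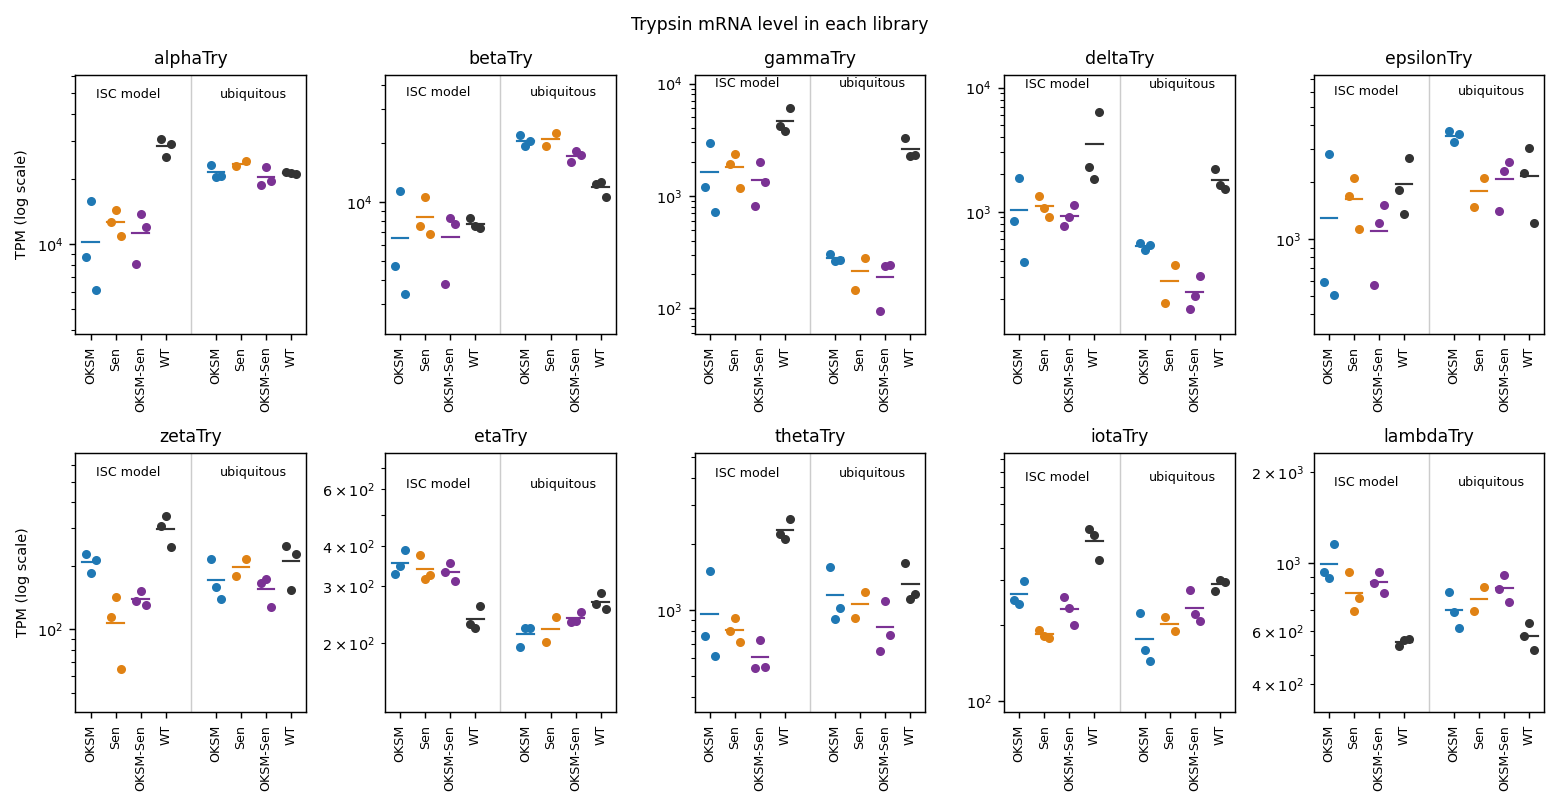
TPM (log axis, with its own range for each gene) of the 10 trypsins in every library, with ISC-model groups on the left and ubiquitous-model groups on the right of each panel. Each point is a library and each bar a group mean. In the ubiquitous model gammaTry, deltaTry and etaTry sit below WT in every library with a construct. In the ISC model alphaTry, gammaTry, zetaTry, thetaTry and iotaTry do so.

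Library totals were 14626936 to 18974759 expected counts in the ISC model and 33438269 to 46324866 in the ubiquitous model. The tissue label of the esgGal4 samples names intestinal stem cells, but the study describes whole dissected midguts, and all 12 of those libraries held transcripts of other cells: Myo31DF, a myosin of enterocytes, was at 92.9 to 108 TPM, and 8 enteroendocrine markers summed to 439 to 667 TPM. The archive notes that the annotation of 2 ISC libraries (Sen replicate 3 and OKSM-Sen replicate 3) had once been exchanged, and the corrected labels were used. No 2 libraries of a group agreed within counting noise.

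In the ISC model, most trypsins were lower with each construct. Against WT, 6 of the 10 genes fell (alphaTry, gammaTry, deltaTry, zetaTry, thetaTry and iotaTry) and 2 rose (etaTry and lambdaTry), and these were the same 8 genes with OKSM, with Sen and with OKSM-Sen. The test was edgeR's quasi-likelihood test at a false discovery rate of 10%, the level the study used, adjusted by Benjamini and Hochberg over 9374 genes. Of all genes tested, it called 32.3% with OKSM, 36.5% with Sen and 29% with OKSM-Sen, so that a call alone was common in this model. The share of genes that fell was 15%, 18.3% and 13.3%, and of genes that rose 17.3%, 18.2% and 15.7%. The median log2 fold change of the 10 trypsins was −0.75 with OKSM, −1.37 with Sen and −1.22 with OKSM-Sen, beside medians over all genes of 0.01, −0.02 and 0.02. The comparisons share their 3 WT libraries and are not independent. Without both libraries whose annotation had been exchanged, deltaTry was not called with any construct (adjusted p 0.105 to 0.186, edgeR), gammaTry was not called with Sen (0.225) or OKSM-Sen (0.119), and etaTry was not called with OKSM-Sen (0.136). Without the filter on low counts, 5 trypsins were called with OKSM in place of 8 (gammaTry at an adjusted p of 0.108, deltaTry at 0.105 and zetaTry at 0.138 were not), gammaTry was not called with Sen (0.115) and etaTry not with OKSM-Sen (0.125). With only OKSM and WT in the fit, gammaTry (0.104) and deltaTry (0.171) were not called.

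The most abundant trypsin, alphaTry, had 8717, 15704 and 6107 TPM with OKSM, 12594, 14366 and 10835 TPM with Sen and 8098, 13747 and 11932 TPM with OKSM-Sen, against 30439, 25190 and 29133 TPM in WT. No library with a construct reached the lowest WT library. The log2 fold change was −1.57 (SE 0.34, adjusted p = 0.00924, edgeR) with OKSM, −1.33 (SE 0.34, adjusted p = 0.0148) with Sen and −1.55 (SE 0.34, adjusted p = 0.0105) with OKSM-Sen. All 3 calls were kept when any 1 of the 12 libraries was left out.

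The level of thetaTry, a trypsin with whole counts in every library, was 757, 1507 and 613 TPM with OKSM, 798, 919 and 714 TPM with Sen and 544, 725 and 548 TPM with OKSM-Sen, against 2206, 2111 and 2601 TPM in WT. The groups with a construct did not overlap WT. The change of −2.16 on the log2 scale (SE 0.33, adjusted p = 0.00217, edgeR) with OKSM-Sen was among the largest of the family in this model, with −1.37 (SE 0.32, adjusted p = 0.0135) for OKSM and −1.68 (SE 0.32, adjusted p = 0.00414) for Sen.

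The smallest p-values of the family belonged to iotaTry, at the far end of the cluster. It had 250, 242 and 298 TPM with OKSM, 190, 181 and 177 TPM with Sen and 257, 233 and 199 TPM with OKSM-Sen, against 477, 451 and 360 TPM in WT. Its libraries varied little within a group, and none with a construct overlapped WT. The log2 fold changes were −0.82 (SE 0.11, adjusted p = 0.000943, edgeR) with OKSM, −1.40 (SE 0.11, adjusted p = 4.45e-05) with Sen and −1.13 (SE 0.11, adjusted p = 0.000155) with OKSM-Sen. These calls and those of thetaTry were kept without any single library.

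Another gene with whole counts in every library, zetaTry, was low most of all with Sen. It had 228, 186 and 212 TPM with OKSM, 115, 143 and 64.8 TPM with Sen and 136, 152 and 130 TPM with OKSM-Sen, against 307, 342 and 245 TPM in WT. The log2 fold changes of −1.63 with Sen (SE 0.25, adjusted p = 0.00149, edgeR) and −1.32 with OKSM-Sen (SE 0.25, adjusted p = 0.00586) were calls that held without any single library. With OKSM, its change of −0.62 (SE 0.25, adjusted p = 0.0966) lay at the threshold, and it was not called in 8 of 12 fits that left out 1 library (adjusted p 0.102 to 0.258: any OKSM library, WT replicate 1 or 2, Sen replicate 1, OKSM-Sen replicate 1 or 3).

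Both remaining calls went the other way. The level of etaTry was 328, 347 and 389 TPM with OKSM, 375, 316 and 325 TPM with Sen and 333, 354 and 312 TPM with OKSM-Sen, against 229, 223 and 260 TPM in WT. The groups did not overlap, but the changes were small: 0.46 (SE 0.10, adjusted p = 0.00934, edgeR) with OKSM, 0.34 (SE 0.10, adjusted p = 0.0296) with Sen and 0.26 (SE 0.10, adjusted p = 0.0962) with OKSM-Sen, on the log2 scale. The call with OKSM held without any single library. That with Sen was lost without Sen replicate 1, WT replicate 1 or WT replicate 2 (adjusted p 0.1004 to 0.107), and that with OKSM-Sen without 10 of the 12 libraries, all but WT replicate 3 and Sen replicate 1 (adjusted p 0.108 to 0.326), reaching 0.16 on the log2 scale without OKSM-Sen replicate 2.

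The first gene of the cluster, lambdaTry, had 939, 894 and 1157 TPM with OKSM, 934, 696 and 769 TPM with Sen and 863, 936 and 797 TPM with OKSM-Sen, against 535, 561 and 562 TPM in WT. Every library with a construct was above WT, and the log2 fold change was 0.73 (SE 0.12, adjusted p = 0.0025, edgeR) with OKSM, 0.36 (SE 0.12, adjusted p = 0.0434) with Sen and 0.42 (SE 0.12, adjusted p = 0.0298) with OKSM-Sen. Without WT replicate 1, lambdaTry was not called with Sen (adjusted p = 0.142) or with OKSM-Sen (0.106), nor without Sen replicate 1 (0.158) and without OKSM-Sen replicate 2 (0.113). Its call with OKSM held throughout.

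Among the genes with shared reads, gammaTry had 1206, 2930 and 724 TPM with OKSM, 1916, 2341 and 1179 TPM with Sen and 809, 2017 and 1335 TPM with OKSM-Sen, against 4189, 3779 and 6008 TPM in WT. Its log2 fold changes were −1.62 (SE 0.55, adjusted p = 0.0614, edgeR) with OKSM, −1.54 (SE 0.55, adjusted p = 0.0649) with Sen and −1.97 (SE 0.56, adjusted p = 0.0348) with OKSM-Sen. For OKSM the call was lost without OKSM replicate 1 or 3 or any WT library (adjusted p 0.106 to 0.157), for Sen without Sen replicate 1 or 3 or any WT library (0.101 to 0.183) and for OKSM-Sen without OKSM-Sen replicate 1 or 3 (0.104 to 0.106). For deltaTry the values were 837, 1886 and 392 TPM with OKSM, 1347, 1072 and 902 TPM with Sen and 767, 899 and 1124 TPM with OKSM-Sen, against 2278, 1850 and 6365 TPM in WT. WT replicate 3 stood far above the other WT libraries, and OKSM replicate 2 was level with WT replicate 2. The log2 fold changes of deltaTry were −1.86 (SE 0.63, adjusted p = 0.0595) with OKSM, −1.86 (SE 0.63, adjusted p = 0.0534) with Sen and −2.16 (SE 0.64, adjusted p = 0.0398) with OKSM-Sen. Without WT replicate 3 they were −1.04 (adjusted p = 0.203), −1.04 (0.195) and −1.35 (0.118), and no construct was then called. The deltaTry calls were also lost without OKSM replicate 1 or 3 (adjusted p 0.147 and 0.119) for OKSM, without Sen replicate 2 or 3 (0.122 and 0.150) for Sen, and without OKSM-Sen replicate 1 (0.123) for OKSM-Sen.

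Neither betaTry nor epsilonTry passed the test in this model. The level of betaTry was 4727, 11463 and 3372 TPM with OKSM, 7545, 10678 and 6833 TPM with Sen and 3807, 8305 and 7762 TPM with OKSM-Sen, against 8300, 7570 and 7374 TPM in WT, with overlapping groups. OKSM replicate 2 was the highest of the 3 OKSM libraries for alphaTry, betaTry, gammaTry, deltaTry, epsilonTry and thetaTry. Without it, betaTry was at −1.05 on the log2 scale (adjusted p = 0.0725, edgeR) in place of −0.34 (SE 0.45, adjusted p = 0.619), and epsilonTry at −1.96 (adjusted p = 0.0266) in place of −0.69 (SE 0.67, adjusted p = 0.495), so that both were then called with OKSM. With all libraries epsilonTry had 594, 2792 and 503 TPM with OKSM, 1681, 2086 and 1131 TPM with Sen and 571, 1218 and 1515 TPM with OKSM-Sen, against 1812, 1360 and 2669 TPM in WT, and the groups overlapped.

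The sum of alphaTry to deltaTry, which does not depend on how reads are divided among them, was lower with each construct. It took 0.715% to 2.16% of a library's expected counts with OKSM, 1.31% to 1.91% with Sen and 0.885% to 1.67% with OKSM-Sen, against 2.73% to 3.44% in WT, without overlap. The log2 fold change of the sum was −1.30 (SE 0.40, adjusted p = 0.0387, edgeR) with OKSM, −1.07 (SE 0.39, adjusted p = 0.0673) with Sen and −1.36 (SE 0.40, adjusted p = 0.0357) with OKSM-Sen. The call was lost without OKSM replicate 1 for OKSM (adjusted p = 0.107), without OKSM-Sen replicate 1 for OKSM-Sen (0.110), and for Sen without Sen replicate 1 or 3 or any WT library (0.106 to 0.184). Without both libraries of exchanged annotation it was not called with Sen (0.222) or OKSM-Sen (0.108). As pairs, alphaTry with betaTry changed by −1.22 (adjusted p = 0.0413), −0.97 (0.0809) and −1.25 (0.0418) with OKSM, Sen and OKSM-Sen, and gammaTry with deltaTry by −1.72 (0.0501), −1.67 (0.0491) and −2.05 (0.0298).

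**Figure D2:**
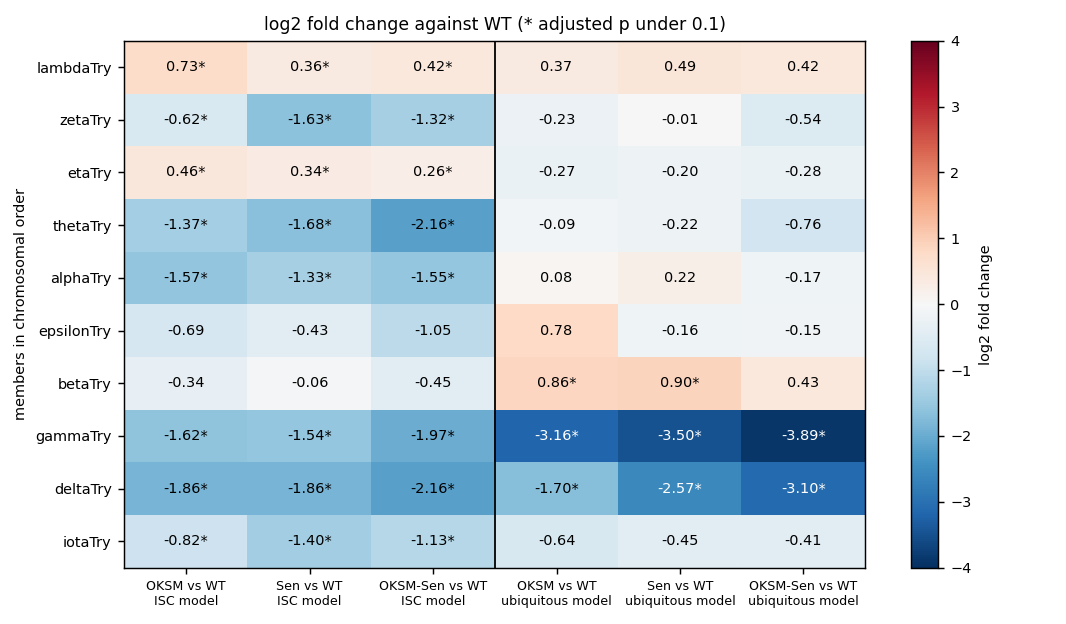
Log2 fold change against WT for the 10 trypsins (rows, in their order along the chromosome arm) in the 6 comparisons with WT (columns), from edgeR's quasi-likelihood test. Blue is lower and red higher than WT, and an asterisk marks an adjusted p under 0.1; the ISC columns hold 6 lower and 2 higher calls each, the ubiquitous columns 2 lower calls each at gammaTry and deltaTry and, for OKSM and Sen, a higher call at betaTry.

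In the ubiquitous model, fewer trypsins passed the test. Both gammaTry and deltaTry fell with each construct, and betaTry rose with OKSM and with Sen. None of the other 7 members passed edgeR's test in any of the 3 comparisons with WT. That made 3 of 10 trypsins called with OKSM, 3 with Sen and 2 with OKSM-Sen, where edgeR's test called 1.09%, 2.48% and 1.16% of the 9637 genes tested (0.54%, 1.2% and 0.56% lower and 0.55%, 1.28% and 0.602% higher than WT). DESeq2, the program the study used, called 4, 3 and 3 of the 10 trypsins with OKSM, Sen and OKSM-Sen. The median log2 fold change of the 10 genes was −0.16, −0.18 and −0.34, beside −0.0032, −0.01 and −0.00089 over all genes. These comparisons, too, share their WT libraries.

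The level of gammaTry was 302, 264 and 268 TPM with OKSM, 147 and 280 TPM with Sen and 94.6, 236 and 245 TPM with OKSM-Sen, against 3263, 2246 and 2312 TPM in WT. All 8 libraries with a construct lay far below the 3 WT libraries. The log2 fold change was −3.16 (SE 0.41, adjusted p = 0.0112, edgeR) with OKSM, −3.50 (SE 0.50, adjusted p = 0.0172) with Sen and −3.89 (SE 0.43, adjusted p = 0.00388) with OKSM-Sen, and each call held without any single library. With only Sen and WT in the fit, gammaTry was the 1 trypsin still called (adjusted p = 0.0972).

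For deltaTry the values were 556, 490 and 537 TPM with OKSM, 185 and 371 TPM with Sen and 166, 211 and 302 TPM with OKSM-Sen, against 2223, 1653 and 1521 TPM in WT, again without overlap. The log2 fold change was −1.70 (SE 0.32, adjusted p = 0.0692, edgeR) with OKSM, −2.57 (SE 0.39, adjusted p = 0.022) with Sen and −3.10 (SE 0.34, adjusted p = 0.00371) with OKSM-Sen. The calls with Sen and OKSM-Sen held without any single library, but with only Sen and WT in the fit deltaTry was not called (−2.56, adjusted p = 0.184). The call with OKSM was lost without any OKSM library, any WT library or OKSM-Sen replicate 2 (adjusted p 0.106 to 0.232) at values between −1.79 and −1.52. Added up as 1 row, gammaTry with deltaTry fell, with log2 fold changes of −2.38 (adjusted p = 0.0226), −3.05 (0.0153) and −3.51 (0.00289) for OKSM, Sen and OKSM-Sen.

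The level of betaTry was 21972, 19276 and 20503 TPM with OKSM, 19369 and 22539 TPM with Sen and 16105, 18232 and 17531 TPM with OKSM-Sen, against 12349, 12723 and 10640 TPM in WT. Every library with a construct was above every WT library. The change was 0.86 (SE 0.15, adjusted p = 0.0448, edgeR) with OKSM and 0.43 (SE 0.15, adjusted p = 0.375) with OKSM-Sen, and for Sen, at 0.90, the adjusted p was 0.0373. With OKSM, leaving out any OKSM or WT library raised the adjusted p to between 0.101 and 0.145, and with Sen, leaving out Sen replicate 3, WT replicate 1 or WT replicate 2 raised it to between 0.102 and 0.165. With only Sen and WT in the fit it was 0.246. Added up as 1 row, alphaTry with betaTry was not called with any construct. The log2 fold changes of this pair were 0.40 (adjusted p = 0.342, edgeR), 0.49 (0.198) and 0.06 (0.995) for OKSM, Sen and OKSM-Sen. The 8 libraries in which betaTry was higher and gammaTry lower are also those in which the counts of betaTry were whole, and the part of the division of reads in these calls was not tested.

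Its close relative alphaTry stayed near WT, at 23105, 20492 and 20644 TPM with OKSM, 22820 and 24117 TPM with Sen and 18687, 22707 and 19468 TPM with OKSM-Sen, against 21412, 21219 and 21028 TPM in WT. OKSM and OKSM-Sen overlapped WT and both Sen libraries lay above it, and the log2 fold changes were 0.08 (SE 0.14), 0.22 (SE 0.15) and −0.17 (SE 0.14), with adjusted p between 0.565 and 0.946 in edgeR's test. The sum of alphaTry to deltaTry did not pass the test either, with log2 fold changes of 0.26 (SE 0.14, adjusted p = 0.645), 0.34 (SE 0.16, adjusted p = 0.387) and −0.09 (SE 0.14, adjusted p = 0.977) for OKSM, Sen and OKSM-Sen. Since that sum is made mostly of alphaTry and betaTry reads, it says little of gammaTry and deltaTry.

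The make-up of the sum was described without a test. With ubiquitous expression, gammaTry and deltaTry together gave 1.78% to 1.83% of the alphaTry to deltaTry counts with OKSM, 0.744% and 1.31% with Sen and 0.708% to 1.39% with OKSM-Sen, against 9.80% to 13.3% in WT. In the ISC model they gave 9.98% to 14.4%, 9.98% to 13.2% and 10.5% to 11.1%, against 13.5% to 24.0% in WT, where OKSM replicate 2 overlapped WT. The ratio of betaTry to alphaTry counts was 0.505 to 0.680 with OKSM, 0.558 to 0.692 with Sen and 0.439 to 0.606 with OKSM-Sen in the ISC model, against 0.236 to 0.280 in WT. For ubiquitous expression it was 0.871 to 0.920, 0.786 to 0.865 and 0.742 to 0.831, against 0.468 to 0.555 in WT. Each of these ratios lay above all WT libraries of its model, and all rest on the division of shared reads.

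**Figure D3:**
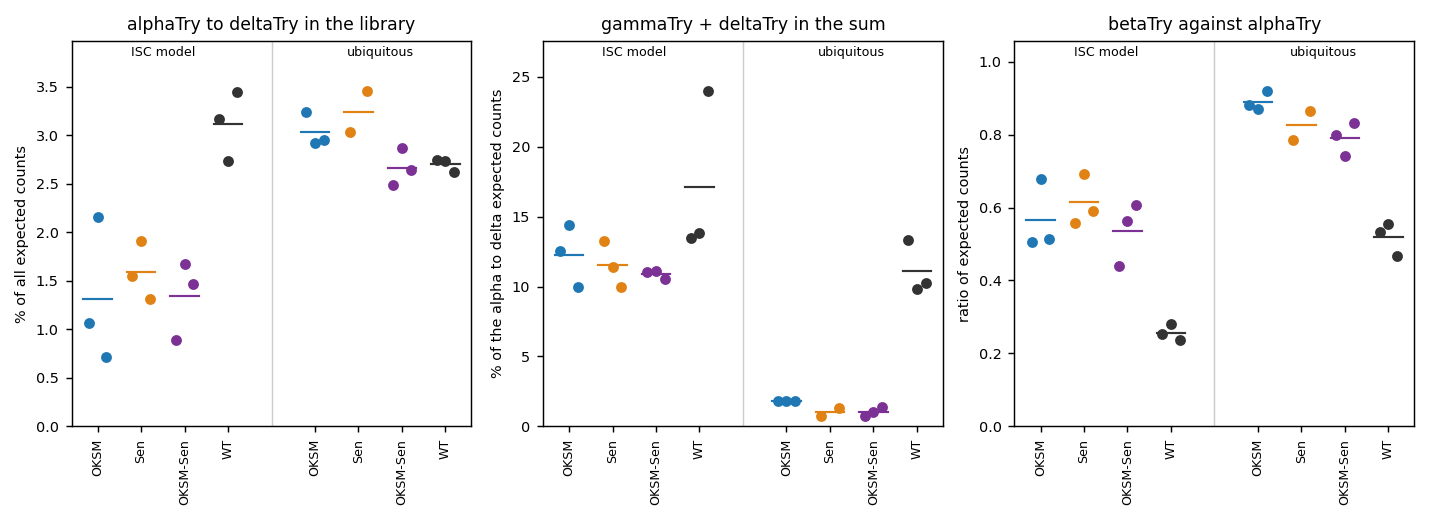
Share of a library's expected counts taken by alphaTry to deltaTry (left), share of gammaTry and deltaTry within that sum (middle) and ratio of betaTry to alphaTry counts (right), by library, with group means as bars. With a construct, the sum is lower in the ISC model, gammaTry and deltaTry give at most 1.83% of it in the ubiquitous model, and betaTry is nearer to alphaTry in both.

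The remaining trypsins of the ubiquitous model were not called by edgeR in any comparison with WT. For etaTry, levels of 195, 222 and 222 TPM with OKSM, 201 and 241 TPM with Sen and 233, 234 and 250 TPM with OKSM-Sen lay below the 265, 286 and 256 TPM of WT, with log2 fold changes of −0.28 to −0.20 (adjusted p 0.543 to 0.593, edgeR). The values of iotaTry were 222, 158 and 144 TPM with OKSM, 214 and 189 TPM with Sen and 274, 219 and 206 TPM with OKSM-Sen, against 272, 300 and 293 TPM in WT. OKSM-Sen replicate 1 alone lay within the WT range. With OKSM it changed by −0.64 on the log2 scale (SE 0.19, adjusted p = 0.236), and without OKSM replicate 1 it was −0.88 and was called (adjusted p = 0.0534).

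The level of lambdaTry was 806, 693 and 615 TPM with OKSM, 695 and 835 TPM with Sen and 822, 917 and 748 TPM with OKSM-Sen, against 576, 635 and 517 TPM in WT. Only OKSM replicate 3 lay within the WT range, and the log2 fold changes were 0.37, 0.49 and 0.42 (adjusted p 0.278 to 0.519, edgeR) with OKSM, Sen and OKSM-Sen. For epsilonTry the values were 3693, 3265 and 3561 TPM with OKSM, 1476 and 2098 TPM with Sen and 1410, 2288 and 2549 TPM with OKSM-Sen, against 2242, 3010 and 1215 TPM in WT. Its OKSM libraries were the highest, above all WT libraries, and the log2 fold change with OKSM was 0.78 (SE 0.33, adjusted p = 0.444). The level of zetaTry was 214, 159 and 138 TPM with OKSM, 180 and 215 TPM with Sen and 166, 174 and 127 TPM with OKSM-Sen, against 248, 153 and 227 TPM in WT. The level of thetaTry was 1570, 907 and 1016 TPM with OKSM, 914 and 1202 TPM with Sen and 650, 1096 and 763 TPM with OKSM-Sen, against 1628, 1121 and 1176 TPM in WT. The groups overlapped WT except for thetaTry with OKSM-Sen, whose 3 libraries lay below WT, and the log2 fold changes lay between −0.76 and −0.01 (adjusted p 0.458 to 0.995).

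Constructs were also compared with each other. In the ISC model, zetaTry and iotaTry were lower with Sen than with OKSM, by −1.01 (SE 0.25, adjusted p = 0.0745, edgeR) and −0.58 (SE 0.11, adjusted p = 0.0225) on the log2 scale, so that 2 of 10 trypsins were called where 5.04% of all genes were. The call of zetaTry was lost without any OKSM library, without Sen replicate 1 or 3, or without OKSM-Sen replicate 3 (adjusted p 0.106 to 0.158), and that of iotaTry without Sen replicate 3 (0.104). Without both libraries of exchanged annotation neither was called (adjusted p 0.172 for zetaTry and 0.107 for iotaTry). OKSM-Sen differed from OKSM in 0 of 10 trypsins (0.672% of all genes called) and from Sen in 0 of 10 (0.555%). At an unadjusted p under 0.05 in edgeR's test there were 4 and 1, and DESeq2 called 0 and 0. Among ubiquitous constructs edgeR called 0 of 10 in each of these comparisons, while 1.25% of all genes were called for Sen against OKSM, 0.301% for OKSM-Sen against OKSM and 1.8% for OKSM-Sen against Sen. The numbers at an unadjusted p under 0.05 were 2, 4 and 2, and DESeq2 called 0, 1 and 2. The trypsin that differed most between OKSM-Sen and OKSM there was deltaTry, at −1.41 on the log2 scale (SE 0.32, adjusted p = 0.215).

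Whether OKSM and Sen together gave the sum of their separate log2 effects was tested as an interaction, which is 0 when effects add. In the ISC model it was called for 4 of 10 trypsins, beside 21.9% of all genes. It was 1.35 (SE 0.47, adjusted p = 0.0822, edgeR) for alphaTry, 1.09 (SE 0.15, adjusted p = 0.00328) for iotaTry, −0.54 (SE 0.14, adjusted p = 0.0331) for etaTry and −0.67 (SE 0.17, adjusted p = 0.027) for lambdaTry. In each of these genes the sign was opposite to that of both single effects, so that the combined construct moved the gene by less than the sum of both. In either model the same WT libraries enter the interaction and both single effects, so that their signs are not independent. The call of alphaTry was lost without 9 of the 12 libraries (all but OKSM replicate 2, Sen replicate 2 and OKSM-Sen replicate 1; adjusted p 0.103 to 0.161) and without the filter on low counts (0.126), and the other calls held without any single library. Without both libraries of exchanged annotation only iotaTry was called (adjusted p 0.258 for alphaTry, 0.118 for etaTry and 0.1096 for lambdaTry). With alphaTry and betaTry added up, the ISC interaction was 0.94 and not called (adjusted p = 0.263, edgeR). The sum of alphaTry to deltaTry was not called either (1.01, adjusted p = 0.251). For ubiquitous expression the interaction was called for 2 of 10 trypsins, beside 1.06% of all genes. It was −1.33 (SE 0.22, adjusted p = 0.0609) for betaTry and 2.77 (SE 0.59, adjusted p = 0.0997) for gammaTry, again opposite to both single effects. The betaTry call was lost without OKSM replicate 2, Sen replicate 3, WT replicate 1 or any OKSM-Sen library (adjusted p 0.103 to 0.158), and that of gammaTry in every fit that left out 1 library except OKSM-Sen replicate 1 (0.112 to 0.232). The gammaTry call was also lost with median-of-ratios size factors (0.109) and without the filter on low counts (0.121). Neither pair sum was called for this interaction. It was −0.83 (adjusted p = 0.157, edgeR) for alphaTry with betaTry and 1.91 (0.173) for gammaTry with deltaTry. The sum of alphaTry to deltaTry was at −0.69 and was not called (adjusted p = 0.223).

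The effects in the ISC model were then compared with those in the ubiquitous model in 1 fit over all 23 libraries. The models differ in driver and in depth, and the ISC files hold non-whole expected counts for 532 to 596 genes, against 1707 to 1852 genes in the ubiquitous files. The sources do not say whether reads or settings differed. Driver, depth and the division of shared reads therefore cannot be told apart here, which bears most on alphaTry, gammaTry and the sum. For OKSM against WT, the effects differed in 2 of 10 trypsins (4.12% of all 9602 genes): in alphaTry by −1.68 (SE 0.39, adjusted p = 0.0449, edgeR) and in etaTry by 0.70 (SE 0.16, adjusted p = 0.0466) on the log2 scale. For Sen against WT they differed in 6 of 10 (27.3% of all genes): alphaTry by −1.57 (SE 0.41, adjusted p = 0.0129), zetaTry by −1.64 (SE 0.39, adjusted p = 0.00831), thetaTry by −1.48 (SE 0.48, adjusted p = 0.0386), iotaTry by −0.97 (SE 0.23, adjusted p = 0.00839), etaTry by 0.52 (SE 0.17, adjusted p = 0.0427) and gammaTry by 1.94 (SE 0.76, adjusted p = 0.0834). The difference for gammaTry is positive because its fall was larger in the ubiquitous model. With Sen, deltaTry (0.70, adjusted p = 0.566, edgeR) and the pair of gammaTry with deltaTry (1.36, adjusted p = 0.201) were not called. The pair of alphaTry with betaTry was called (−1.47, adjusted p = 0.0301). For OKSM-Sen, 0 of 10 were called by edgeR (1.46% of all genes), with 6 at an unadjusted p under 0.05 and 5 called by DESeq2. The effect on the sum of alphaTry to deltaTry differed between models for OKSM (−1.58, SE 0.45, adjusted p = 0.0862) and for Sen (−1.42, SE 0.47, adjusted p = 0.0421), and for OKSM-Sen it was −1.28 (SE 0.45, adjusted p = 0.183).

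The Sen differences of alphaTry, zetaTry and iotaTry held without any 1 of the 23 libraries. That of thetaTry was lost without ubiquitous Sen replicate 3, at −1.10 (adjusted p = 0.171), and without both ISC libraries of exchanged annotation (0.102), as were those of the sum for OKSM (0.137) and for Sen (0.118). Without the filter on low counts, those of gammaTry for Sen (0.135) and of the sum for OKSM (0.120) were lost. That of etaTry was 0.28 without ubiquitous Sen replicate 2 (adjusted p = 0.269) and 0.82 without ubiquitous Sen replicate 3 (adjusted p = 0.00325), and was lost without ISC Sen replicate 1 as well (0.1002). That of gammaTry was lost without ubiquitous Sen replicate 2 or WT replicate 1, or without ISC Sen replicate 1 or 2 or WT replicate 1 or 2 (0.123 to 0.296). For OKSM, the alphaTry difference was lost without OKSM replicate 1 of either model, ubiquitous WT replicate 2 or ISC WT replicate 1 (0.103 to 0.117), and the etaTry difference without ubiquitous OKSM replicate 1 or WT replicate 2, or ISC OKSM replicate 3 or WT replicate 1 or 2 (0.103 to 0.138). The difference of the sum was lost without 14 of the 23 libraries for OKSM (adjusted p 0.102 to 0.195, at −1.66 to −1.24), and for Sen without ubiquitous or ISC Sen replicate 3 (0.140 and 0.1005).

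**Figure D4:**
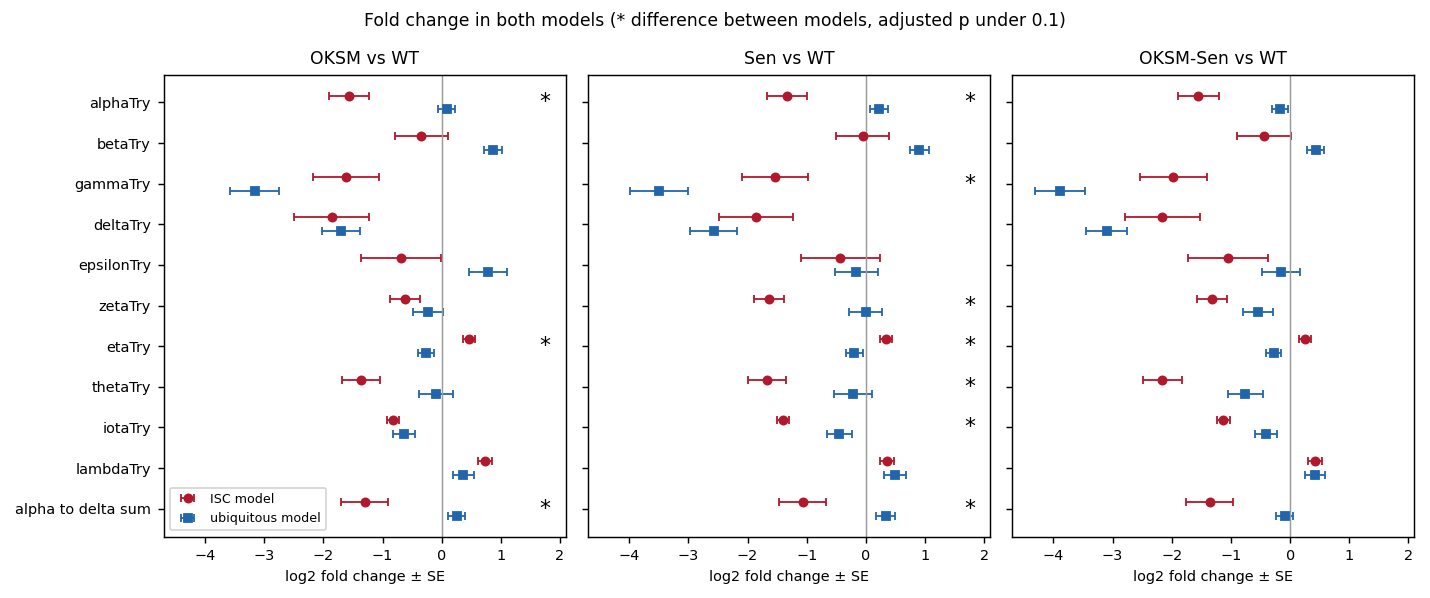
Log2 fold change against WT (± SE) of each trypsin and of the alphaTry to deltaTry sum in the ISC model (red circles) and the ubiquitous model (blue squares), for OKSM, Sen and OKSM-Sen. An asterisk marks a difference between models with adjusted p under 0.1 in edgeR's test; there are 2 such trypsins for OKSM, 6 for Sen and 0 for OKSM-Sen, and the sum has an asterisk for OKSM and for Sen.

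The neighbour kappaTry did not pass the test in any of the 6 comparisons with WT. It stood at 558 to 804 TPM with a construct against 516 to 607 TPM in WT in the ISC model, and at 475 to 615 TPM against 534 to 640 TPM in the ubiquitous model. CG30025 and CG30031 were at most 58.3 TPM in any library and were not called against WT in the comparisons in which they were tested.

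Other digestive enzymes gave a mixed picture beside the trypsins. With OKSM, Sen and OKSM-Sen, 17.3%, 18.2% and 15.7% of all genes rose in the ISC model, and 15%, 18.3% and 13.3% fell. In the ubiquitous model, 1.09%, 2.48% and 1.16% of all genes were called. Of 16 Jonah proteases, a second family of gut serine proteases, 2 rose and 1 fell with OKSM in the ISC model, 1 rose and 5 fell with Sen, and 1 rose and 6 fell with OKSM-Sen. Jon99Fii had log2 fold changes of −1.99, −2.63 and −2.78 (adjusted p = 0.00414, 0.00083 and 0.00123, edgeR). Of 7 other serine proteases tested, 2 rose and 4 fell with OKSM, 1 and 4 with Sen, and 1 and 3 with OKSM-Sen, among them the trypsin-like Try29F at −2.15, −3.18 and −3.15 and Ser8 at 2.47, 2.00 and 2.20. Of 13 amylases and maltases, which digest starch and sugars, 6, 5 and 7 rose and 0 fell. In the ISC model the called amylases and maltases were thus all higher, and the called trypsins mostly lower, in the same libraries. A list of 10 lysozymes, lipases and other genes was lower there by summed level, without overlap. Its sums were 3133 to 9295 TPM with OKSM, 4350 to 7350 TPM with Sen and 3766 to 6885 TPM with OKSM-Sen, against 9933 to 11435 TPM in WT. In the ubiquitous model they were 11965 to 13867, 9141 to 10255 and 7958 to 11212 TPM, against 9672.5 to 11760 TPM in WT. In the ubiquitous model, 0 of 16 Jonah genes were called with OKSM, 3 rose with Sen and 0 were called with OKSM-Sen, of other serine proteases 2, 1 and 0 rose and 0 fell, and of amylases and maltases 0 were called in any of the 3.

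Of 4 genes known to regulate digestive enzymes in the fly gut (the sugar-responsive factor sug, the TGF-beta ligand daw, and the transcription factors GATAe and nub), 0 were called with OKSM in the ISC model. With Sen, sug (−2.09) and GATAe (−0.57) fell and nub (0.30) rose on the log2 scale, and with OKSM-Sen sug fell (−1.43). Of all genes, 36.5% were called with Sen and 29% with OKSM-Sen in that model. With ubiquitous expression 0 of 4 were called in the 3 comparisons with WT.

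Some markers of other cells were called with the constructs in the ISC model. Of all genes, 17.3%, 18.2% and 15.7% rose there with OKSM, Sen and OKSM-Sen, and 15%, 18.3% and 13.3% fell. A single call in a short list therefore says little. Of 4 stem cell and enteroblast markers tested, 2, 4 and 2 rose with OKSM, Sen and OKSM-Sen, and their summed level was 26.3 to 39.0, 48.3 to 52.3 and 38.5 to 41.5 TPM, against 14.1 to 20.7 TPM in WT. The stem cell markers esg and Dl were listed too but could not be matched to the count files. Of 7 visceral muscle genes, 6, 2 and 2 rose, with sums of 911 to 1363, 981 to 1053 and 763 to 971 TPM, against 606 to 659 TPM in WT. Of 6 enterocyte markers, 1, 2 and 1 rose and Vha100-4 fell with each construct, with sums of 1017 to 1218, 1038 to 1176 and 847 to 972 TPM, against 618 to 747 TPM in WT. The sterol transporter gene Npc1b made most of that difference: it had medians of 603, 652 and 497 TPM, against 238 TPM in WT, and the other 5 markers summed to 426 to 515, 475 to 522 and 391 to 451 TPM, against 412 to 468 TPM in WT. The median log2 fold change of the 6 was −0.0047, 0.099 and 0.017. Of 5 Malpighian tubule markers 0 rose, and 1 fell with Sen (Best2, −1.08). Their sums of 96.4 to 237, 68.2 to 221 and 4.58 to 200 TPM, against 16.1 to 28.6 TPM in WT, were mostly Uro in the OKSM and Sen libraries, a gene that was not called with any construct (adjusted p 0.110 to 0.296, edgeR), and without it they were 13.9 to 20.2, 14.7 to 25.1 and 4.42 to 42.6 TPM, against 8.34 to 9.73 TPM in WT. Of 3 ovary genes tested, 1, 2 and 0 rose. The 9 ovary genes measured summed to 6.67 to 220, 1.85 to 32.6 and 2.55 to 14.5 TPM, against 0.46 to 1.11 TPM in WT, where the eggshell genes Vm26Ab, Vm34Ca and Cp19 were at 0, and the 220 TPM came from Cp15 in 1 OKSM library (215 TPM, with a group median of 1.02 TPM). Of 7 genes that mark midgut regions, 0 rose and 4, 4 and 2 fell. The 8 enteroendocrine markers summed to 560 to 598, 439 to 491 and 503 to 667 TPM with OKSM, Sen and OKSM-Sen, against 445 to 471 TPM in WT. For 7 fat body genes the sums were 283 to 384, 122 to 731 and 392 to 1416 TPM, against 299 to 412 TPM in WT. For 5 testis genes they were 4.42 to 5.87, 4.66 to 5.59 and 4.75 to 7.01 TPM, against 6.74 to 10.7 TPM in WT. The part of these markers in the trypsin values was not tested. In the ubiquitous model 2 of the 4 stem cell and enteroblast markers fell with Sen (sum 10.9 to 13.6 TPM, against 19.7 to 31.4 TPM in WT), and 0 of the 4 were called with OKSM or OKSM-Sen. Of all genes, 1.2% fell with Sen in that model.

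Within each model the members did not vary as a single block, as correlations of log2 library-scaled counts (CPM) show. In the ISC model (12 libraries) alphaTry went with gammaTry (Pearson r 0.97), thetaTry (0.93) and deltaTry (0.91), zetaTry with iotaTry (0.91), betaTry with epsilonTry (0.93) and etaTry with lambdaTry (0.91), and etaTry and lambdaTry ran against alphaTry (−0.66 and −0.77). In the ubiquitous model (11 libraries) gammaTry went with deltaTry (0.96), zetaTry with thetaTry (0.80), and betaTry ran against gammaTry (−0.64). These values describe the libraries only, since libraries of a group share their construct, and for alphaTry to deltaTry they also share reads.

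Over 9186 other genes tested in both models, the 5 whose levels most resembled the alphaTry to deltaTry sum, by the smaller of the 2 correlations within models, were Jon99Cii (r 0.89 in the ISC model and 0.91 in the ubiquitous model), Kaz-m1 (0.90 and 0.89), CG32483 (0.90 and 0.87), CG8952 (0.93 and 0.86) and CG6295 (0.96 and 0.85). Jon99Cii is a Jonah protease that had 3175 to 11979 TPM with OKSM, 4791 to 6499 TPM with Sen and 3630 to 5278 TPM with OKSM-Sen in the ISC model, against 10767 to 19204 TPM in WT. Its range with OKSM overlapped WT, unlike that of the sum, and so did those of CG8952 and CG6295. Like the sum, Kaz-m1 and CG32483 did not overlap WT with any construct in the ISC model. Kaz-m1 had 213 to 316 TPM with OKSM, 287 to 329 TPM with Sen and 230 to 365 TPM with OKSM-Sen, against 397 to 445 TPM in WT. CG32483 had 65.8 to 113, 81.2 to 86.2 and 53.2 to 104 TPM, against 117 to 149 TPM in WT.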

How the data were processed

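Midgut RNA of 23 libraries was sequenced as paired reads. The authors deposited, for each library and gene, an expected count and a TPM value made by RSEM 1.3.1 after alignment with STAR 2.7.1a to dm6, per the submitters' processing notes. RSEM divides reads that match several genes by estimate. The deposited TPM values were used as such for levels, with no test.

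The expected counts were rounded to whole numbers. The 390 rRNA, snoRNA and snRNA genes and genes with a mean count under 10 were removed. Each model was fitted with its 4 constructs in edgeR 4.0.16 (R 4.3.3; TMM scaling, robust quasi-likelihood F test, Benjamini-Hochberg adjustment over all genes tested, false discovery rate 10%). The difference between models came from a fit of all 8 groups. For sums, 1 row replaced the genes added up. Symbols were matched for 17587 of 17714 gene IDs. The fits were tested on simulated data.

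Library totals of at least 14626936 expected counts made counting error small for these abundant genes, so that the spread between libraries set the precision. Ubiquitous Sen had 2 libraries. All 10 trypsins and the trypsin genes among them were named, called or not, with the 5 most similar other genes and at most 3 called genes of each list and comparison. Correlations used log2 CPM with a prior count of 2. Alternatives were other scaling (median-of-ratios size factors or library totals), no filter, DESeq2 1.42.0, a replicate block, only the constructs compared, leaving out each library, and other sums. The trypsins and gene lists were chosen with earlier results of these data known. Figures were drawn with matplotlib 3.10.9.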

Additional observations from a re-analysis of the deposited data

Results flagged for a closer look

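For 10 results the effect of a construct against WT differed between the ISC model and the ubiquitous model, by edgeR's quasi-likelihood test of the difference itself (ISC minus ubiquitous, log2 scale, Benjamini-Hochberg adjusted p under 10%). With OKSM, alphaTry differed by −1.68 (adjusted p = 0.0449), with effects of −1.57 in the ISC model and 0.08 in the ubiquitous model. The OKSM effect on etaTry differed by 0.70 (adjusted p = 0.0466; 0.46 and −0.27), and that on the sum of alphaTry to deltaTry by −1.58 (adjusted p = 0.0862; −1.30 and 0.26).

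With Sen, the differences were −1.57 for alphaTry (adjusted p = 0.0129; −1.33 in the ISC model and 0.22 in the ubiquitous model), 1.94 for gammaTry (0.0834; −1.54 and −3.50), −1.64 for zetaTry (0.00831; −1.63 and −0.01), 0.52 for etaTry (0.0427; 0.34 and −0.20), −1.48 for thetaTry (0.0386; −1.68 and −0.22), −0.97 for iotaTry (0.00839; −1.40 and −0.45) and −1.42 for the sum (0.0421; −1.07 and 0.34), all by edgeR's test. The model and the sequencing depth cannot be told apart in these differences. No group had enough libraries for a check of single outlying samples.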

How the results depend on the processing

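Replicate numbers did not pair the libraries: deviations of same-numbered libraries from their group means correlated between −0.332 and 0.252 over 18 pairs in the ISC model and between −0.367 and 0.469 over 15 pairs in the ubiquitous model. With a replicate block, 7 trypsins were called in each ISC comparison with WT and 2 in each ubiquitous one, the interaction called 0 in the ubiquitous model, and zetaTry with Sen there was at 0.13.

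Leaving out 1 library gave 5 to 9 trypsins called for OKSM, 5 to 8 for Sen and 5 to 8 for OKSM-Sen against WT in the ISC model, 1 to 3 for OKSM against WT and 0 to 1 for OKSM-Sen against OKSM in the ubiquitous model, 0 to 2 for Sen against OKSM in the ISC model, 3 to 7 (ISC) and 0 to 1 (ubiquitous) for the interaction, and 0 to 5 (OKSM) and 0 to 3 (OKSM-Sen) for the model difference. The ISC sum of alphaTry to deltaTry ranged from −1.88 to −0.97 with OKSM, −1.24 to −0.94 with Sen and −1.59 to −1.12 with OKSM-Sen. Of 24 ISC and 8 ubiquitous trypsin calls against WT, 13 and 5 were kept without every single library. Uncalled values near 0 changed sign: in the ubiquitous model thetaTry with OKSM (−0.40 to 0.096) and with Sen (−0.58 to 0.081), epsilonTry with Sen (−0.59 to 0.18) and with OKSM-Sen (−0.43 to 0.14), zetaTry (−0.28 to 0.24) and etaTry (−0.48 to 0.046) with Sen, and in the ISC model betaTry with Sen (−0.30 to 0.077).

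Without the filter on low counts, 5 trypsins were called for OKSM against WT in the ISC model and 1 for the ubiquitous interaction, zetaTry with Sen was at 0.016 in the ubiquitous model, and the ISC sum with Sen was −1.06 (adjusted p = 0.112, edgeR). Median-of-ratios size factors gave 1 call for the ubiquitous interaction and 0.0071 for that zetaTry value, and DESeq2 gave 0.0071 for it too, with 1 trypsin called for OKSM-Sen against OKSM and 2 against Sen in the ubiquitous model and 5 for the OKSM-Sen model difference. Library totals alone gave 2 for that difference, −0.011 for ubiquitous alphaTry with OKSM and 0.070 for ISC betaTry with Sen. With only the constructs compared, 1 trypsin was called for Sen against WT and 1 for OKSM-Sen against OKSM in the ubiquitous model and 1 for Sen against OKSM in the ISC model, and zetaTry with Sen was at 0.011. Without both ISC libraries whose annotation had been exchanged, an alternative chosen after seeing the data, as were the pair sums, 5 trypsins were called for OKSM-Sen against WT, 0 for Sen against OKSM and 1 for the interaction, ISC betaTry with Sen was at 0.077, and the ISC sum was −0.94 with Sen (adjusted p = 0.222) and −1.42 with OKSM-Sen (adjusted p = 0.108). The cause was not tested, beyond fewer libraries or more genes in the fit. Adding CG30025 and CG30031 to the sum changed no call.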
